A study of Mus musculus with 30 samples.

Results

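CC chemokines are small secreted proteins that direct the migration of leukocytes, and 10 genes of this family, Ccl2, Ccl3, Ccl4, Ccl5, Ccl7, Ccl9, Ccl12, Ccl17, Ccl22 and Ccl24, were followed across 30 libraries of mouse bone marrow-derived macrophages. The members were chosen by name, and each symbol was matched to its Ensembl gene identifier among the 55414 genes counted. All 10 passed the filter on low counts, Ccl17 only through its M2 libraries, and were among the 15686 genes tested. The cells were macrophages grown from bone marrow for 7 days in medium that held 15 or 20% conditioned medium of L929 fibroblasts, as a source of growth factors. The bone marrow came from wild-type mice (WT) or from transgenic mice with a mutation of thyroid hormone receptor α1, named TRα1PV in the labels. PV is known as a frameshift mutation that makes a dominant-negative receptor. M0 cells of either genotype received no stimulus, M1 cells received interferon-γ and lipopolysaccharide (LPS), 20 ng/mL of either, and M2 cells received 20 ng/mL interleukin-4. There were 5 libraries, labelled biological replicates, in each of these 6 groups. The sources used here do not give the age or sex of the mice, the zygosity of the mutation, the duration of stimulation or whether a replicate number stands for 1 animal, so that p-values measure the spread between these libraries, part of which may be technical.

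The family works through G protein-coupled receptors, and several ligands share a receptor. CCL2, CCL7 and CCL12 bind CCR2 and draw monocytes out of the blood. CCL3, CCL5 and CCL9 bind CCR1, which is found on monocytes, macrophages and activated T cells, and CCL4 is a close relative of CCL3. CCL17 and CCL22 bind CCR4, a receptor of type 2 helper and regulatory T cells, and CCL24 binds CCR3 on eosinophils. Macrophages can make each of these ligands. LPS acts through TLR4 and NF-κB, interferon-γ through JAK kinases, and interleukin-4 through STAT6.

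Libraries held between 23016000 and 59086000 reads counted in genes, and levels are given as CPM (a gene's count relative to its library's total, the total scaled by TMM). The 10 genes together took a mean share of the reads in genes of 0.0725% in WT M0, 0.394% in WT M1 and 0.243% in WT M2, against 0.0685%, 0.397% and 0.220% for the same states of TRα1PV. The gene of the mutated receptor, Thra, was higher in TRα1PV by 1.2, 0.94 and 1.37 on the log2 scale in M0, M1 and M2 (edgeR, adjusted p = 1.76e-10, 7.95e-08 and 2.24e-11), and counts per gene do not separate the mutant transcript. All 8 macrophage markers examined, Adgre1, Csf1r, Cd68 and Lyz2 among them, had reads in every group, with a summed level of at least 7485 CPM. Some results are also given without 1 of 2 libraries. WT M0 replicate 2 had the highest share of mitochondrial reads, in a range of 0.485% to 4.56% over the libraries, and without it the number of genes called between genotypes in M0 was 6143 in place of 4072, while the 4 members called in M0 stayed called (Ccl12 2.63, Ccl7 1.22, Ccl2 0.90 and Ccl5 0.60 on the log2 scale, the last with an adjusted p of 0.0448). The other, WT M1 replicate 1, had the lowest Ccl2, Ccl7 and Ccl12 of its group. The check of member levels for a library far from the rest, given below, did not flag it.

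**Figure D1:**
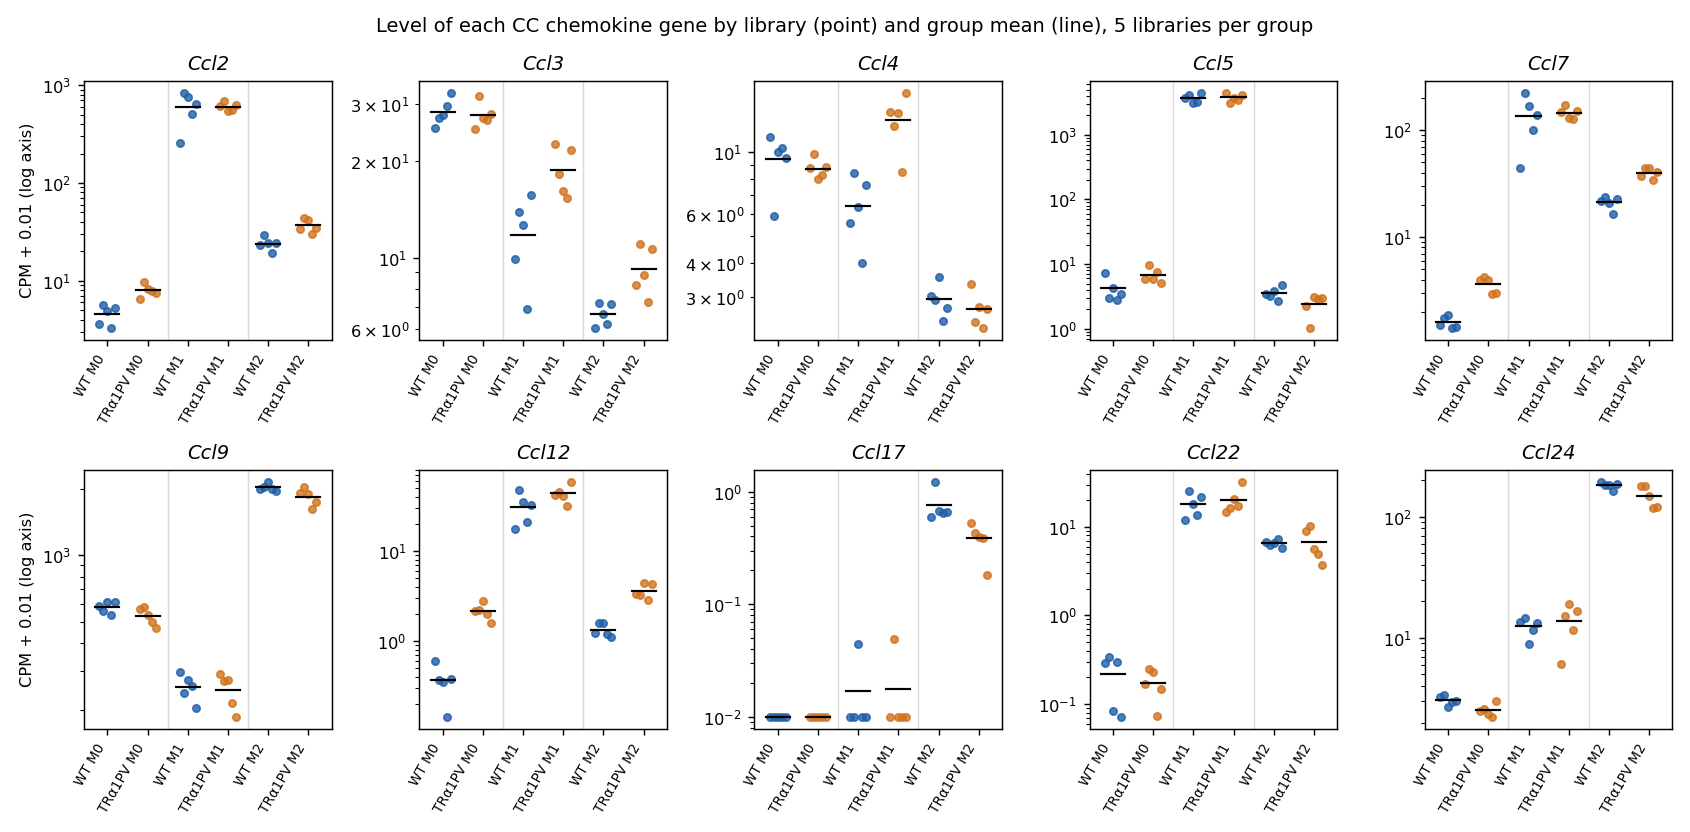
Level of each CC chemokine gene in every library, in CPM + 0.01 on a log axis (points, blue WT, orange TRα1PV), with the mean of 5 libraries as a line; libraries of Ccl17 with no read lie at 0.01. Ccl5 spans 1.01 to 4450 CPM over the libraries, and Ccl17 is above 0.1 CPM in the M2 libraries and in no other.

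Within either genotype, the mean was highest in M1 for 5 of the 10 genes (Ccl2, Ccl5, Ccl7, Ccl12 and Ccl22), in M2 for 3 (Ccl9, Ccl17 and Ccl24) and in M0 for Ccl3. The mean of Ccl4 was highest in M0 in WT and in M1 in TRα1PV. Levels per kilobase of exon, which allow genes to be set against each other, put Ccl9 first in WT M0 at 191 CPM per kilobase, ahead of Ccl3 at 37 and Ccl4 at 14.3. In WT M1 Ccl5 led at 3862 CPM per kilobase, followed by Ccl2 at 528, Ccl7 at 169 and Ccl9 at 82.8. In WT M2 the order was Ccl9 at 667, Ccl24 at 140, Ccl7 at 26.5 and Ccl2 at 21.0 CPM per kilobase.

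In WT, 6 members rose and 3 fell with LPS and interferon-γ, where 39.4% of all tested genes rose and 40.2% fell. In TRα1PV 7 rose and 2 fell (40.0% and 40.7% of all tested genes). With interleukin-4, 7 rose and 2 fell in WT (25.2% and 27.2%), and 7 rose and 3 fell in TRα1PV (28.3% and 29.4%). The median log2 fold change over 9 members (Ccl17, with at most 1 read per group in M0 and M1, left out) was 6.4 in WT and 4.34 in TRα1PV for M1 against M0, beside -0.02 over all tested genes in both. For M2 against M0 it was 2.15 and 2.00 over all 10 with Ccl17 set at a lower bound, beside -0.02 over all tested genes in both. M1 against M2, 7 members were higher and 3 lower in each genotype, where 38.9% and 39.6% of tested genes were higher and lower in WT, and 39.8% and 41.0% in TRα1PV. Ccl17 is counted among those that rose with interleukin-4 and those lower in M1 than in M2. It passed the filter through M2 alone, so its direction in these comparisons was largely fixed beforehand. Without it, the medians for M2 against M0 were 1.91 in WT and 1.79 in TRα1PV over 9 members.

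**Figure D2:**
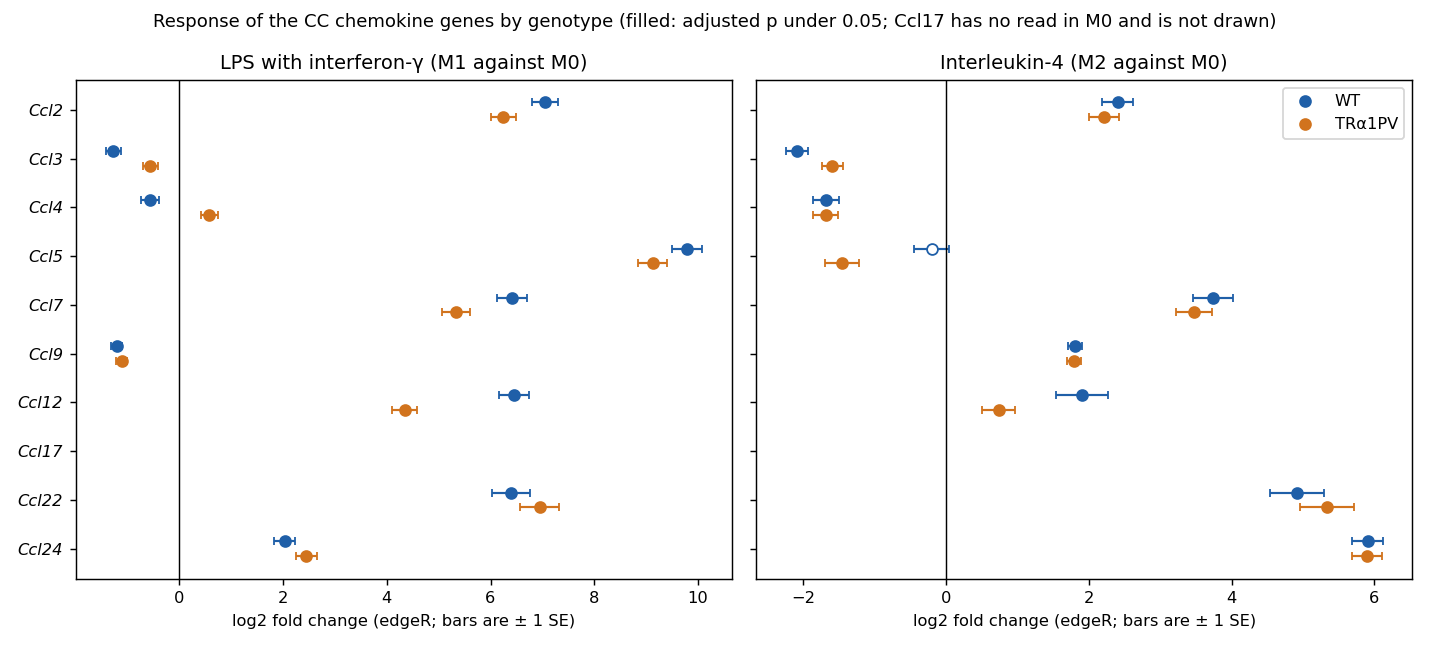
Log2 fold change of each CC chemokine gene with LPS and interferon-γ (left) and with interleukin-4 (right) in WT (blue) and TRα1PV (orange), from edgeR with 5 libraries per group; bars are ± 1 SE and filled points have an adjusted p under 0.05. Ccl5 lies farthest right on the left panel, at 9.79 and 9.12, and Ccl4 lies on opposite sides of 0 in the 2 genotypes there.

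Between genotypes, the 3 ligands of CCR2 were higher in TRα1PV in M0 and in M2, and Ccl3 and Ccl4 were higher in TRα1PV in M1. In M0 4 members were called higher (Ccl2, Ccl5, Ccl7 and Ccl12) and none lower, where 12.0% of tested genes were higher and 14.0% lower. In M1 2 members were called higher (Ccl3 and Ccl4) and none lower (9.74% and 10.2% of tested genes), and in M2 4 were called higher (Ccl2, Ccl3, Ccl7 and Ccl12) and Ccl17 lower (6.14% and 6.96%). A call is an adjusted p under 0.05 in edgeR's quasi-likelihood test, adjusted over all tested genes. Medians over the 9 members without Ccl17 were -0.04 in M0, 0.14 in M1 and 0.04 in M2. Over all tested genes they were -0.01, 0.00 and -0.01. With Ccl17, which passed the filter through M2 alone, the M2 median over 10 members was -0.04. Its call in M2 was lost with no filter on low counts (edgeR, adjusted p = 0.0835). In bulk RNA, a change in the number of cells that make a transcript and a change in RNA per cell cannot be told apart.

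**Figure D3:**
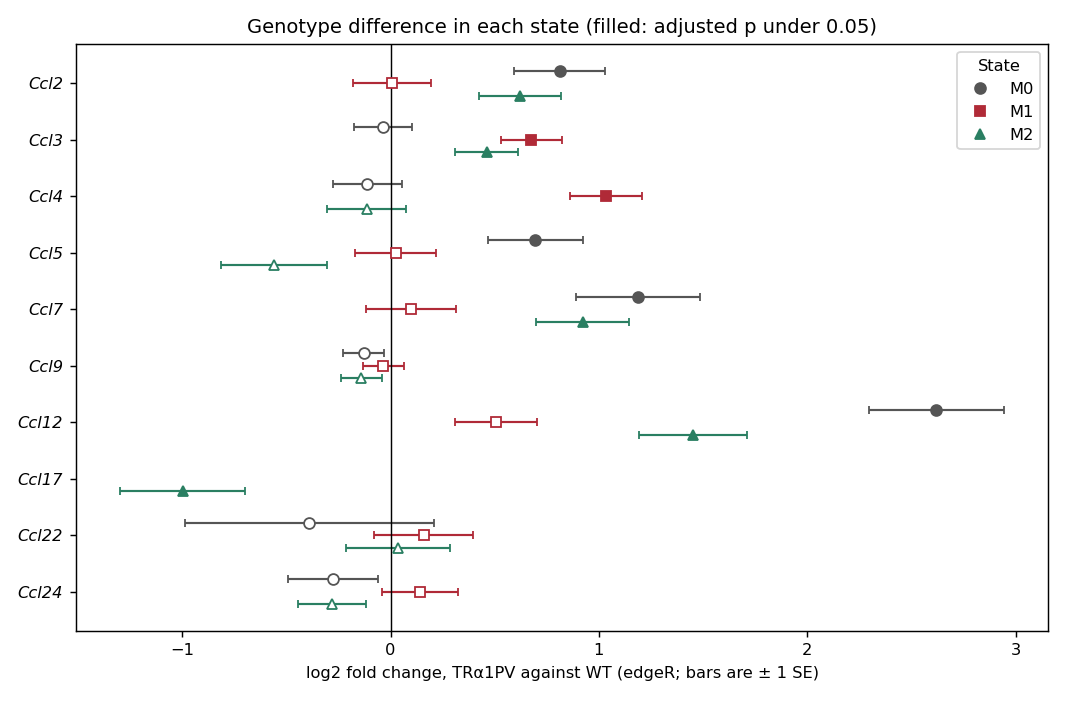
Log2 fold change of TRα1PV against WT for each CC chemokine gene in M0 (grey circles), M1 (red squares) and M2 (green triangles), from edgeR with 5 libraries per group; bars are ± 1 SE and filled points have an adjusted p under 0.05. Ccl12 in M0 lies farthest from 0, at 2.62, and Ccl17 is drawn for M2 alone, where it lies at -1.0.

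Among the CCR2 ligands, Ccl12 (ENSMUSG00000035352, chromosome 11), which encodes monocyte chemotactic protein 5, a mouse relative of CCL2, differed most between genotypes. In M0 the 5 WT libraries stood at 0.595, 0.357, 0.344, 0.133 and 0.368 CPM, from 67 reads in all, and the 5 TRα1PV libraries at 2.14, 2.23, 2.79, 1.98 and 1.58 CPM, from 550 reads. Every TRα1PV library lay above every WT library, and the fitted difference was 6.15-fold (log2 2.62 ± 0.33, edgeR, adjusted p = 5.17e-07). In M2 the WT libraries stood at 1.21, 1.57, 1.57, 1.2 and 1.1 CPM and those of TRα1PV at 3.36, 3.23, 4.41, 2.86 and 4.3 CPM, again without overlap. The difference there was 2.74-fold (log2 1.45 ± 0.26, adjusted p = 0.000282). In M1, where the gene was most abundant, WT libraries stood at 17.6, 48.4, 34.9, 21.4 and 32.7 CPM and TRα1PV libraries at 42.6, 45.1, 40.8, 31.7 and 59.8 CPM. These ranges overlapped, and the log2 difference of 0.51 ± 0.20 missed the threshold (95% interval 0.10 to 0.91, adjusted p = 0.0662). It passed in 5 of 17 alternatives, with the replicate number as a block (0.54, adjusted p = 0.0188), with limma-voom (0.0186), with the share of reads in no gene as a covariate (0.041), without WT M1 replicate 2 (0.00882) and without TRα1PV M1 replicate 4 (0.0322). Without WT M1 replicate 1 the difference was 0.36 (0.172). In order of the group means, TRα1PV M1 and WT M1 overlapped, and TRα1PV M2, TRα1PV M0, WT M2 and WT M0 followed, each below the group before it without overlap.

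The promoter of Ccl12 is shown because this gene carried the largest genotype difference of the family. RefSeq promoters were at hand for 5 of the 10 members (Ccl3, Ccl9, Ccl12, Ccl17 and Ccl22), and the 250 bases before the start were searched on both strands for 7 motifs. These were the kappa-B consensus, the core of the interferon-stimulated response element, the interferon-γ activation site (TTCNNNGAA), the STAT6 element, whose spacer is 1 base longer, TGANTCA (an AP-1 site), AGGTCA (the core element bound by thyroid hormone receptor and other nuclear receptors) and the TATA box (TATAAA). The short AGGTCA word occurs in 14% of the 32851 promoters searched, TATAAA in 12.4%, the kappa-B consensus in 7.25%, TTCNNNGAA in 7.02%, TGANTCA in 6.75%, the STAT6 element in 5.85% and the interferon-stimulated element in 2.98%. In the Ccl12 window (chr11:82101595-82101844, GRCm38.p6, plus strand) the search found TATAAA 31 bases before the start, in capitals here, and none of the other motifs.
Ccl12: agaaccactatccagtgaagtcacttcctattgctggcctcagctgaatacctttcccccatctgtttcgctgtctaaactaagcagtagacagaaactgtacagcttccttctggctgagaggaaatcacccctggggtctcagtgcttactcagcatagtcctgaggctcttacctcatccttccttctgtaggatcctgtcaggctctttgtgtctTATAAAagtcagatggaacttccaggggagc
A match is a description of letters and not of binding, and windows this short leave out most regulatory sequence.

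Ccl2 (ENSMUSG00000035385, chromosome 11), the main monocyte attractant of the family, was also higher in TRα1PV in the 2 states in which it was scarce. In M0 WT libraries stood at 3.57, 5.64, 4.91, 3.25 and 5.31 CPM and TRα1PV libraries at 6.55, 9.67, 8.24, 7.79 and 7.46 CPM, without overlap and 1.75-fold apart (log2 0.81 ± 0.22, edgeR, adjusted p = 0.00696). In M2 the values were 23, 29.1, 24.4, 19 and 24.1 CPM in WT and 33.9, 43.5, 42.0, 30.1 and 34.5 CPM in TRα1PV. The TRα1PV libraries all lay above those of WT, by 1.54-fold (log2 0.62 ± 0.20, adjusted p = 0.0346). That call was lost with limma-voom (adjusted p = 0.0576) and on leaving out any 1 of WT M2 replicates 1, 3, 4 and 5 or TRα1PV M2 replicates 2, 3 and 5 (log2 0.55 to 0.64, adjusted p 0.0503 to 0.0918). In M1 WT libraries stood at 257, 837, 765, 505 and 641 CPM and TRα1PV libraries at 610, 690, 539, 552 and 631 CPM. Those of TRα1PV lay within the range of WT, and the log2 difference was 0.01 ± 0.19 (95% interval -0.38 to 0.40, adjusted p = 0.986). Without WT M1 replicate 1 it was -0.19 (adjusted p = 0.369).

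Ccl7 (ENSMUSG00000035373), the neighbour of Ccl2 on chromosome 11 and a further attractant of monocytes, followed the same pattern. In M0 its values were 1.5, 1.74, 1.84, 1.39 and 1.44 CPM in WT and 3.96, 4.22, 3.93, 2.95 and 3.02 CPM in TRα1PV, a 2.28-fold difference without overlap (log2 1.19 ± 0.30, edgeR, adjusted p = 0.00395; limma-voom gave 0.0869). In M2 they were 21.8, 23.9, 21.0, 16.5 and 22.8 CPM in WT and 37.5, 44.4, 43.9, 34.3 and 40.8 CPM in TRα1PV, 1.89-fold apart and again without overlap (log2 0.92 ± 0.22, adjusted p = 0.00593). In M1 the WT libraries spread from 43.8 to 224 CPM, with a coefficient of variation of 50.2%, and those of TRα1PV from 128 to 170 CPM, with 12%. The groups overlapped, and the log2 difference was 0.10 ± 0.21 (95% interval -0.34 to 0.54, adjusted p = 0.788). Without WT M1 replicate 1 it was -0.13 (adjusted p = 0.559). WT M1 replicate 1 was the lowest and WT M1 replicate 2 the highest of the WT libraries for Ccl2, Ccl7 and Ccl12 alike. Across all 30 libraries, deviations from the group means correlated with Pearson r = 0.883 for Ccl2 with Ccl7 and 0.629 for Ccl7 with Ccl12. This is a description over libraries that share depth and culture, given without a test. Of the 6 groups, WT M1 had the highest coefficient of variation for Ccl2 (38.3%) and for Ccl7 (50.2%). The correlations were not computed without that group.

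All 3 CCR2 ligands rose with both stimuli in both genotypes. In M1 against M0, Ccl2 rose 133-fold in WT and 76.1-fold in TRα1PV, Ccl7 85.4-fold and 40.2-fold, and Ccl12 87.8-fold and 20.3-fold (adjusted p at most 6.43e-17). The log2 response to LPS and interferon-γ was smaller in TRα1PV than in WT for each of them, since the groups differed in M0 more than in M1. The difference of the genotype effect, M1 minus M0, was -2.11 ± 0.39 for Ccl12 (edgeR, adjusted p = 0.000298), -1.09 ± 0.37 for Ccl7 (0.0292) and -0.80 ± 0.29 for Ccl2 (0.0392). For this difference, 13.3% of all tested genes were called higher and 13.3% lower, and among the members 2 were higher and 3 lower. The Ccl12 call held in all 28 alternatives, with an adjusted p of at most 0.008. The Ccl7 call was lost with limma-voom (0.252), in the fit on the 4 groups alone (0.0612) and without WT M0 replicate 1 or 4, WT M1 replicate 2 or 3 or TRα1PV M0 replicate 3 (0.0511 to 0.062). That of Ccl2 was lost with limma-voom (0.147), in the fit on the 4 groups alone (0.0686) and without any of 11 of the 20 libraries (0.0536 to 0.0926). These were WT M0 replicates 1 and 4, WT M1 replicates 2, 3 and 5, TRα1PV M0 replicates 2, 3 and 4, and TRα1PV M1 replicates 1, 3 and 4.

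With interleukin-4 the CCR2 ligands rose less. Against M0, Ccl7 was 13.4-fold higher in WT M2 and 11.1-fold in TRα1PV, Ccl2 5.29-fold and 4.63-fold, and Ccl12 3.75-fold and 1.67-fold (adjusted p at most 0.00775; the Ccl12 rise in TRα1PV had an adjusted p of 0.054 with limma-voom). The genotype effect in M2 minus that in M0 was called for none of the 3, at -1.17 ± 0.43 for Ccl12 (adjusted p = 0.211), -0.27 ± 0.37 for Ccl7 (0.92) and -0.19 ± 0.29 for Ccl2 (0.933). In that comparison 0.701% of tested genes were called higher and 1.46% lower, and 1 member, Ccl5, was called, lower. The genotype effect in M1 minus that in M2 was -0.95 ± 0.33 for Ccl12 (adjusted p = 0.0373), which was called, and -0.82 ± 0.31 for Ccl7 (0.0545) and -0.61 ± 0.27 for Ccl2 (0.101), which were not. In that comparison 10.6% of tested genes were called higher and 11.2% lower, against 1 member each way, Ccl4 and Ccl12. The Ccl12 call was lost with limma-voom (0.145) and without any 1 of 11 libraries (0.0506 to 0.0775). They were WT M1 replicates 2, 3 and 5, WT M2 replicates 1, 4 and 5, TRα1PV M1 replicates 1, 3 and 4, and TRα1PV M2 replicates 3 and 5. Without WT M1 replicate 1, Ccl2 (-0.81, adjusted p = 0.00512) and Ccl7 (-1.05, 0.000722) were called as well, and Ccl7 also without WT M1 replicate 4 (0.0433). The Ccl7 value was called as well with the replicate block (-0.75, adjusted p = 0.043), with DESeq2 (0.0456), with no filter on low counts (0.0447) and with the covariate (0.0412).

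The summed level of granulocyte precursor markers averaged higher in TRα1PV than in WT in each of the 3 states. The summed level of the 8 markers was 47.6 to 206 CPM in WT M0 and 174 to 359 CPM in TRα1PV M0, and 28 to 91.4 against 97.2 to 224 CPM in M2, with reads for every marker in all 4 groups. In M1 it was 3.28 to 5.16 against 5.33 to 11 CPM, with no read for Elane. The genotypes overlapped in M0 and did not in M1 or M2. Of the 7 markers tested, 7 were called higher in TRα1PV in M0, 1 in M1 and 6 in M2 (12.0%, 9.74% and 6.14% of all tested genes). The genotype effect in M1 minus that in M0 was called for none of them, against 13.3% of all tested genes each way. The 8 fibroblast and stromal markers went the other way, at 7.44 to 24.9 CPM in WT M0 against 1.78 to 3.30 CPM in TRα1PV M0. The part of such cells in the level of Ccl2, Ccl7 or Ccl12 was not tested.

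Ccl3 and Ccl4, which lie beside each other on chromosome 11 and encode macrophage inflammatory proteins 1α and 1β, differed between genotypes in M1. In M0 the libraries overlapped for Ccl3 (ENSMUSG00000000982), at 25.2, 27.0, 27.6, 29.6 and 32.5 CPM in WT and 25.1, 31.8, 27.1, 26.6 and 27.8 CPM in TRα1PV (log2 difference -0.04 ± 0.14, 95% interval -0.33 to 0.25, adjusted p = 0.88). In M1 it stood at 9.91, 13.8, 12.6, 6.89 and 15.6 CPM in WT and at 22.5, 18.2, 16.1, 15.3 and 21.6 CPM in TRα1PV. Of the 5 TRα1PV libraries 4 lay above every WT library, and the difference was 1.60-fold (log2 0.68 ± 0.15, edgeR, adjusted p = 0.00151). TRα1PV was the higher in 5 of 5 pairs of the same replicate number. In M2 it stood at 6.02, 7.23, 6.66, 6.21 and 7.17 CPM in WT and at 8.21, 11, 8.82, 7.26 and 10.7 CPM in TRα1PV. These did not overlap, although TRα1PV M2 replicate 4 and WT M2 replicate 2 nearly met, and the difference was 1.38-fold (log2 0.46 ± 0.15, adjusted p = 0.0434). The M2 call was lost with limma-voom (0.0809) and on leaving out any 1 library of M2 other than TRα1PV replicates 1 and 4 (log2 0.39 to 0.49, adjusted p 0.0551 to 0.123).

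Ccl4 (ENSMUSG00000018930) changed in opposite directions with LPS and interferon-γ in the 2 genotypes. In M0 it stood at 11.4, 5.87, 10.0, 10.3 and 9.51 CPM in WT and at 8.76, 9.83, 8.02, 8.27 and 8.82 CPM in TRα1PV, which overlapped (log2 difference -0.11 ± 0.17, adjusted p = 0.654). In M1 it stood at 5.57, 8.39, 6.34, 3.99 and 7.62 CPM in WT and at 14, 12.4, 13.8, 8.50 and 16.4 CPM in TRα1PV. The groups did not overlap there, although TRα1PV replicate 4 lay just above WT replicate 2, and the difference was 2.05-fold (log2 1.03 ± 0.17, edgeR, adjusted p = 7.61e-05). Against M0, Ccl4 fell by 0.57 on the log2 scale in WT M1 (SE 0.17, adjusted p = 0.00377) and rose by 0.58 ± 0.17 in TRα1PV M1 (adjusted p = 0.00223). The rise in TRα1PV was 0.23 (adjusted p = 0.178) when the covariate was each library's share of reads in no gene, whereas the fall in WT passed in all 18 alternatives. The genotype effect in M1 minus that in M0 was 1.15 ± 0.24 (adjusted p = 0.00103), and that in M1 minus that in M2 also 1.15 ± 0.26 (0.003), and both passed in all 28 alternatives.

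Ccl3 fell in both genotypes in M1, by 1.27 on the log2 scale in WT and by 0.56 in TRα1PV (adjusted p = 3.79e-09 and 0.000711). The genotype effect in M1 minus that in M0 was 0.71 ± 0.20 (edgeR, adjusted p = 0.0111), and passed in all 28 alternatives. With interleukin-4 both genes fell in both genotypes, Ccl3 to 6.66 ± 0.547 CPM in WT and 9.18 ± 1.59 CPM in TRα1PV (SD, n = 5), 4.26-fold and 3.02-fold below M0. Ccl4 reached 2.94 ± 0.407 and 2.72 ± 0.403 CPM, 3.21-fold and 3.22-fold below M0 (adjusted p at most 3.34e-09), and its M2 levels did not differ between genotypes beyond their spread (log2 -0.11 ± 0.19, 95% interval -0.50 to 0.28, adjusted p = 0.722). Deviations from the group means of Ccl3 and Ccl4 correlated with r = 0.575 over the 30 libraries, as a description.

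**Figure D4:**
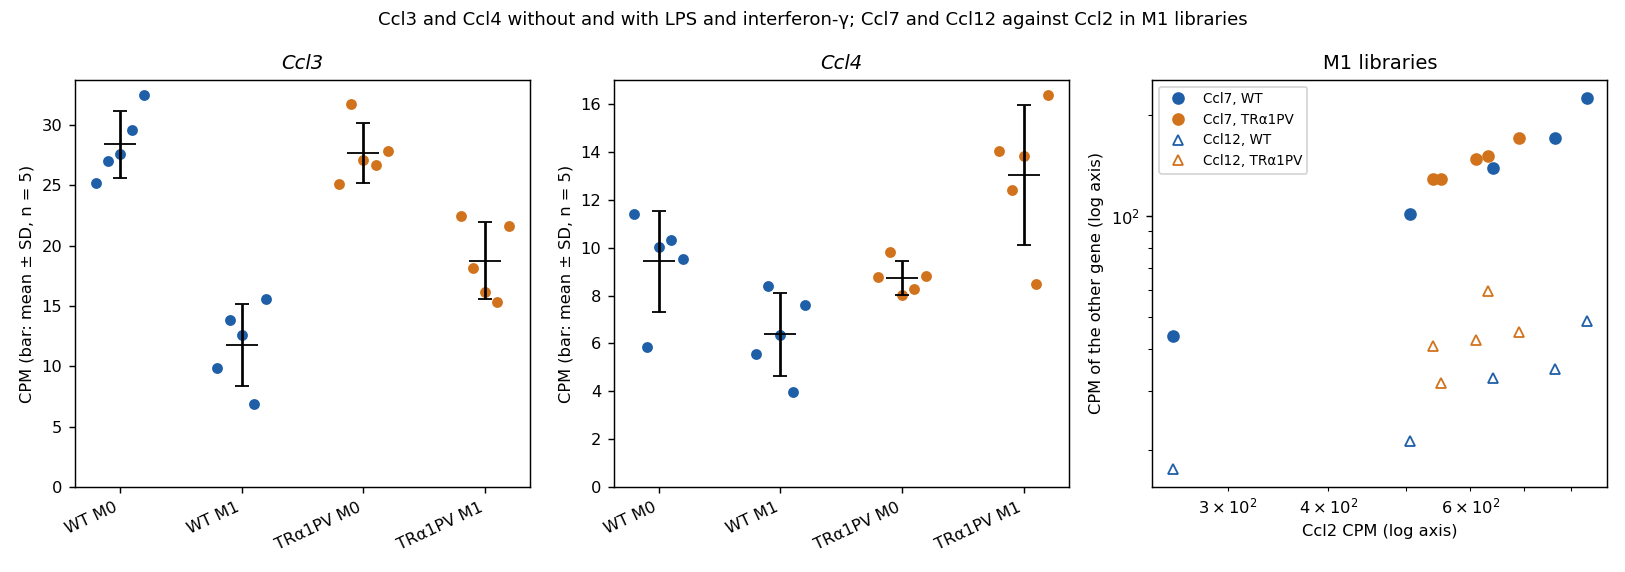
Ccl3 and Ccl4 in CPM in M0 and M1 libraries of WT (blue) and TRα1PV (orange), with mean ± SD of 5 libraries as bars (left and middle), and Ccl7 (circles) and Ccl12 (triangles) against Ccl2 in the M1 libraries on log axes (right). Ccl4 in TRα1PV M1 lies at 8.50 to 16.4 CPM, above all WT M1 libraries, and WT M1 replicate 1 is the leftmost library on the right, at 257 CPM of Ccl2.

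The Ccl3 promoter (chr11:83649379-83649628, GRCm38.p6, minus strand) is shown because Ccl3 had its highest mean in M0 in both genotypes. It held AGGTCA, in capitals, 186 bases before the start and none of the other 6 motifs.
Ccl3: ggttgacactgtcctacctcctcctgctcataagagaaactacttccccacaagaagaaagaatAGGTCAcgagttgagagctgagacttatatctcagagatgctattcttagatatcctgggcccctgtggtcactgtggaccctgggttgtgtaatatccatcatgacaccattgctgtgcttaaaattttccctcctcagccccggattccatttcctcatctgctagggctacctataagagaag

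Ccl5 (ENSMUSG00000035042, chromosome 11), also called RANTES, which attracts T cells and monocytes, had the largest response of the family. It rose from 7.39, 2.99, 4.3, 2.81 and 3.5 CPM in WT M0 to 3743, 4050, 3104, 3219 and 4421 CPM in WT M1, 888-fold (log2 9.79 ± 0.29, edgeR, adjusted p = 3.08e-23). In TRα1PV it rose from 5.83, 9.57, 5.89, 7.47 and 5.05 CPM to 4450, 3140, 3721, 3496 and 4046 CPM, 558-fold (log2 9.12 ± 0.28, adjusted p = 6.36e-23). The M1 levels of the genotypes overlapped (log2 difference 0.02 ± 0.19, 95% interval -0.38 to 0.43, adjusted p = 0.951). In M0 TRα1PV was 1.62-fold higher (log2 0.69 ± 0.23, adjusted p = 0.0238) in 4 of 5 libraries set against the WT library of the same number, with overlap, because WT M0 replicate 1 lay above 3 of the TRα1PV libraries. That call was lost in the fit on the M0 libraries alone (adjusted p = 0.0868) and without TRα1PV M0 replicate 2 or 4 and without replicate 4 or 5 of WT M0 (log2 0.55 to 0.66, adjusted p 0.0517 to 0.0877).

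For Ccl5 the genotype effect in M1 minus that in M0 was -0.67 ± 0.30 (edgeR, adjusted p = 0.095), and it was called with limma-voom (-0.73, 0.0438), with the covariate (-0.75, 0.027) and without WT M0 replicate 1 (-0.97, 0.0117). Interleukin-4 left Ccl5 at 3.51, 3.17, 3.89, 2.73 and 4.83 CPM in WT, a log2 change of -0.20 ± 0.24 (edgeR, adjusted p = 0.512), and at 2.24, 1.01, 3.14, 2.88 and 2.94 CPM in TRα1PV, where it fell 2.74-fold from M0 (log2 -1.46 ± 0.24, adjusted p = 5.07e-06). The genotype effect in M2 minus that in M0 was -1.25 ± 0.34 (adjusted p = 0.0463), close to the threshold. It was lost with limma-voom (0.053), with the replicate block within genotype (-1.28, 0.0541), in the fit on the 4 groups alone (0.108) and without any of 15 of the 20 libraries (0.0503 to 0.108). The 5 whose absence kept it were WT M0 replicate 1, TRα1PV M0 replicate 5, WT M2 replicate 4 and TRα1PV M2 replicates 3 and 4. Within M2 the genotypes overlapped (log2 difference -0.56 ± 0.25, adjusted p = 0.136).

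Ccl9 (ENSMUSG00000019122, chromosome 11), also called MIP-1γ, a CCR1 ligand made in quantity by resting macrophages and osteoclasts, responded strongly to state and showed no called difference between genotypes. It stood at 582 ± 35.7 CPM in WT M0 and 532 ± 47.4 CPM in TRα1PV M0, fell to 252 ± 34.2 and 246 ± 44.8 CPM in M1 and rose to 2032 ± 80.2 and 1845 ± 161 CPM in M2 (SD, n = 5). It fell 2.31-fold in WT and 2.16-fold in TRα1PV with LPS and interferon-γ, and rose 3.49-fold and 3.47-fold with interleukin-4 (edgeR, adjusted p at most 1.92e-11). The log2 differences between genotypes were -0.13 (95% interval -0.33 to 0.08) for M0, -0.03 (-0.24 to 0.17) for M1 and -0.14 (-0.34 to 0.07) for M2. In M2, 4 of the 5 TRα1PV libraries lay below every WT library. The 250 bases before its start held a kappa-B match 35 bases before the start on the minus strand, TGANTCA at 53 bases and TATAAA in 3 places, the nearest at 92 bases. The longest exact stretch that a transcript of Ccl9 shared with another CC ligand was 25 bases, with Ccl6, and that of Ccl2 was 23 bases, with Ccl7.

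Ccl17 and Ccl22, the CCR4 ligands, lie next to each other on chromosome 8 and differed in level and in the state of their highest mean. Whether the effect of genotype differed between these genes was not tested. Ccl17 (ENSMUSG00000031780) had no read in the 10 M0 libraries and 1 read in each M1 group. With interleukin-4 it reached 0.580, 1.22, 0.662, 0.630 and 0.644 CPM in WT, from 124 reads in all, and 0.518, 0.421, 0.385, 0.379 and 0.173 CPM in TRα1PV, from 74 reads. This was at least 48.2-fold above M0 in WT and at least 30.8-fold in TRα1PV, taking 3 reads over the 5 M0 libraries as the limit that a count of 0 allows. Against M1 the ratio was 104 in WT (exact 95% counting interval 18.3 to 4146) and 52.1 in TRα1PV (9.06 to 2083). In M2 all 5 WT libraries reached the filter's minimum count of 10, but TRα1PV replicate 5, with 7 reads, did not. The filter thus rested in part on the group with the higher level. Every TRα1PV library lay below every WT library in M2, and the log2 difference was -1.0 ± 0.30 (edgeR, adjusted p = 0.032).

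That call rested on few reads. It was lost with DESeq2 (adjusted p = 0.0601), with no filter on low counts (0.0835), when the share of reads in no gene was a covariate (0.0519), and without WT M2 replicate 2 or 5 or TRα1PV M2 replicate 2, 3, 4 or 5 (log2 -1.05 to -0.74, adjusted p 0.051 to 0.122). The largest of these shifts came without WT M2 replicate 2, the highest library. The 6 dendritic cell markers, from cells that make Ccl17 in quantity, summed to 1.03 to 1.77 CPM in WT M2 and 1.46 to 1.96 CPM in TRα1PV M2, with reads for all 6 in both groups, and their part in the Ccl17 level was not tested.

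Ccl22 (ENSMUSG00000031779) was detected in every group and rose with both stimuli. It stood at 0.283, 0.332, 0.0737, 0.288 and 0.0614 CPM in WT M0 and 0.158, 0.236, 0.221, 0.0637 and 0.139 CPM in TRα1PV M0. In M1 it reached 18.1 ± 5.62 CPM in WT and 20.2 ± 7.23 CPM in TRα1PV, 84.2-fold and 123-fold above M0, and in M2 6.48 ± 0.587 and 6.66 ± 2.74 CPM, 30.1-fold and 40.4-fold above M0 (SD, n = 5, edgeR, adjusted p at most 2.31e-12). Its highest levels were thus in M1, 2.80-fold above M2 in WT and 3.05-fold in TRα1PV (adjusted p = 3.26e-06 and 7.13e-07), whereas those of Ccl17 were in M2. Genotypes overlapped in each state, with log2 differences of -0.39 (95% interval -1.62 to 0.84) for M0, 0.16 (-0.33 to 0.65) for M1 and 0.04 (-0.48 to 0.55) for M2. The M2 libraries of TRα1PV spread from 3.66 to 10.1 CPM and those of WT from 5.72 to 7.29 CPM.

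The promoters of this pair are shown because the neighbours had their highest levels in different states. In the Ccl17 window (chr8:94810203-94810452, GRCm38.p6, plus strand) capitals mark the STAT6 element at 154 bases, TTCNNNGAA at 99 bases and AGGTCA at 23 bases before the start.
Ccl17: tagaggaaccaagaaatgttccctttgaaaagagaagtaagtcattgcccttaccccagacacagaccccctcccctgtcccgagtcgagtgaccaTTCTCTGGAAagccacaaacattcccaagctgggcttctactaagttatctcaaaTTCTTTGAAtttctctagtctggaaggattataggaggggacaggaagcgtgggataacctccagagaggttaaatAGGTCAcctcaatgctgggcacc
In the Ccl22 window (chr8:94745434-94745683, GRCm38.p6, plus strand) they mark AGGTCA at 242 bases before the start, and neither STAT element was found there.
Ccl22: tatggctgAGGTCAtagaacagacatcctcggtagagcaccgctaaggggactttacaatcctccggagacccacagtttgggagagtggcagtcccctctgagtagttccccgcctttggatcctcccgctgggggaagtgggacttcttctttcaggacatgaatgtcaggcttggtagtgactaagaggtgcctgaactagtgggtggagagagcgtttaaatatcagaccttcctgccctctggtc
Among the 5 members with a promoter at hand, the letters of both STAT elements thus occurred in that of Ccl17, and AGGTCA in those of Ccl3, Ccl17 and Ccl22.

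Ccl24 (ENSMUSG00000004814, chromosome 5), or eotaxin-2, an attractant of eosinophils and a marker of interleukin-4-treated macrophages, rose with both stimuli and most with interleukin-4. It stood at 3.04 ± 0.26 CPM in WT M0 and 2.53 ± 0.307 CPM in TRα1PV M0. M1 levels were 12.4 ± 2.19 CPM in WT and 13.7 ± 5.02 CPM in TRα1PV, and M2 levels 182 ± 12.1 and 149.7 ± 30.7 CPM (SD, n = 5). The rise with interleukin-4 was 59.8-fold in WT and 59.7-fold in TRα1PV, and that with LPS and interferon-γ 4.08-fold and 5.46-fold (edgeR, adjusted p at most 1.43e-10). Between genotypes the log2 differences were -0.28 (95% interval -0.72 to 0.17) for M0, 0.14 (-0.23 to 0.52) for M1 and -0.28 (-0.62 to 0.06) for M2, none of them called. In M2, 3 of the 5 TRα1PV libraries lay below every WT library. Without TRα1PV M1 replicate 1, the lowest of its group at 6.06 CPM, the genotype effect in M1 exceeded that in M0 by 0.61 (adjusted p = 0.0411) and that in M2 by 0.61 (0.0266), against 0.42 in both comparisons with all libraries (0.28 and 0.21).

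Of 11 other CC ligand genes 4 passed the filter on low counts (Ccl6, Ccl8, Ccl25 and Ccl27a). Ccl6, the neighbour of Ccl9 and likewise a CCR1 ligand, was lower in TRα1PV in each state, by -1.12 ± 0.12 in M0, -1.22 ± 0.13 in M1 and -0.54 ± 0.12 in M2 on the log2 scale (edgeR, adjusted p = 7.31e-08, 1.74e-07 and 0.0033). In M0 it stood at 385 to 510 CPM in WT and 178 to 234 CPM in TRα1PV, without overlap. Ccl8, beside Ccl12 on chromosome 11 and a monocyte attractant, was higher in TRα1PV M2, at 11.4 ± 4.88 against 4.84 ± 1.96 CPM (log2 1.24 ± 0.27, adjusted p = 0.00248). Ccl25 was called higher in TRα1PV M0 by 0.31 ± 0.10 (adjusted p = 0.0207), a call lost when replicate 1 or 5 of WT M0 or replicate 3 of TRα1PV M0 was absent (0.0524 to 0.0832), with the covariate (0.0594) and in the fit on the M0 libraries alone (0.0943). Ccl27a was not called.

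Of 11 receptor genes of the family 6 were tested, and in M0 5 of them were called higher in TRα1PV. Ccr1, which binds CCL3, CCL5 and CCL9, stood at 11.4 to 25.1 CPM in WT M0 and 29.4 to 54.5 CPM in TRα1PV M0 (log2 1.24 ± 0.18, edgeR, adjusted p = 6.47e-06). Ccr2, the receptor of CCL2, CCL7 and CCL12, was higher by 0.84 ± 0.26 in M0 (adjusted p = 0.0161) and differed by -0.79 ± 0.27 in M2 (0.0492, lost with limma-voom at 0.0598 and without any of 7 of the 10 M2 libraries, all but WT replicates 3 and 5 and TRα1PV replicate 1). The genotype effect on Ccr2 in M2 minus that in M0 was -1.63 ± 0.37 (0.0126) and passed in all 28 alternatives, as did that on Ccr1 (-1.23 ± 0.25, 0.00425). The M0 calls of Ccr2 (without it adjusted p = 0.0609) and Ccr1l1 (0.0518) were lost without WT M0 replicate 4, and that of Ccr2 also in the fit on the M0 libraries alone (0.0541). That of Ccr3 was lost in the absence of replicate 1, 3 or 4 of WT M0 or of replicate 1, 3, 4 or 5 of TRα1PV M0 (0.0506 to 0.141). Ccr7, which guides dendritic cells to lymph nodes, was lower in TRα1PV M1, at 36.3 to 92.8 CPM against 108 to 173 CPM in WT (log2 -1.06 ± 0.18, adjusted p = 9.99e-05). Ccrl2, an atypical receptor, was lower in TRα1PV in M0, M1 and M2, by -0.76 ± 0.12, -0.42 ± 0.11 and -0.64 ± 0.14 (adjusted p = 2.78e-05, 0.00951 and 0.00323).

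Of 22 receptor and factor genes upstream of chemokine induction, all were tested, and 5 were higher and 4 lower in TRα1PV M0, 3 and 1 in M1, and 1 and 7 in M2. Irf7, a transcription factor of the interferon response, stood at 32.0 to 59.9 CPM in WT M0 and 68.4 to 155 CPM in TRα1PV M0, without overlap (log2 1.54 ± 0.20, edgeR, adjusted p = 8.91e-07). In M1 it was not called between genotypes (log2 0.07 ± 0.19, adjusted p = 0.827), and the genotype effect in M1 minus that in M0 was -1.47 ± 0.27 (adjusted p = 0.000338). Cd14, the LPS co-receptor, was lower in TRα1PV in M0, M1 and M2, by -0.74 ± 0.18, -1.03 ± 0.19 and -0.91 ± 0.19 (adjusted p = 0.00384, 0.00019 and 0.00148). Il4ra, a chain of the interleukin-4 receptor, was higher by 1.05 ± 0.13 in M1 (adjusted p = 1.29e-06). It was also called higher in M0, by 0.35 (adjusted p = 0.0435), a call lost in 7 of 17 alternatives.

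The genes whose log2 CPM followed each member most closely over the 30 libraries were sought among 10935 other tested genes whose log2 CPM averaged 0 or more. Pearson r of the first gene was 0.997 for Ccl5 with Tap1, 0.996 for Ccl2 with Lrrc8c, 0.990 for Ccl9 with Fam198b, 0.983 for Ccl22 with Ocstamp, 0.982 for Ccl24 with Ndufs1, 0.981 for Ccl7 with Gbp8, 0.977 for Ccl12 with Gbp9, 0.971 for Ccl17 with Rnase2a, 0.960 for Ccl4 with Hmox2 and 0.948 for Ccl3 with Smad3. The second genes were Rbl1 for Ccl2, Heatr9 for Ccl5, Smap2 for Ccl9, Fam20b for Ccl7, Pgap2 for Ccl12, Rnf19b for Ccl22, Dhrs9 for Ccl24, Chil4 for Ccl17, Rubcn for Ccl4 and Sash1 for Ccl3. These values are a description over 6 groups of 5 libraries, which share the differences between states.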

How the data were processed

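PolyA RNA of 30 macrophage libraries was sequenced after preparation with the KAPA mRNA Hyperprep kit, per the labels' protocols. The authors deposited raw counts per gene, 1 file per library, with 5 summary rows of reads assigned to no gene (22.0% to 28.1% of reads per library), which were left out of library sizes and tests. The submitters' processing notes name Trimmomatic 0.39, HISAT2 2.2.1, HTSeq 1.99.2, FastQC 0.11.9, Cufflinks, R 4.3.2, edgeR and limma and the build GRCm39, without roles. Which gene models were counted, and whether strand was used, is not given in the sources at hand. Gm17268, which overlaps Ccl2 on the opposite strand, had 0 reads in every group.

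Gene identifiers were matched to symbols, exon lengths and neighbours in GENCODE vM21 (GRCm38), which named 52081 of 55414 genes. Promoters were RefSeq's on GRCm38.p6, and a match was sought in the 250 bases before the start.

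Counts were fitted with edgeR 4.0.16 in R 4.3.3: TMM scaling, a filter on low counts (filterByExpr, minimum count 10, minimum total 15), and 1 quasi-likelihood model over the 6 groups with 24 residual degrees of freedom, so that all groups share 1 estimate of spread. Adjusted p-values are Benjamini-Hochberg over 15686 genes, and a call is an adjusted p under 0.05. The SE of a log2 fold change is its size divided by the root of the F statistic. Comparisons between genotypes, between states and of the genotype effect between states share groups with each other. Alternatives were RLE size factors, DESeq2 1.42.0, limma-voom (limma 3.58.1), no filter, a replicate block, the share of reads in no gene as a covariate, a fit of the compared groups alone and each library left out. The edgeR fit alone was run on simulated counts, for the genotype comparisons in M0 and M1, with the same dispersion for all genes. The alternatives, the comparisons of states and the differences of genotype effects were not simulated. Genes most like a member were the first 2 by Pearson r of log2 CPM (prior count 2). The labels list the replicate number also as a batch, and each number holds 1 library of every group, so that the block pairs libraries across groups. Deviations of same-numbered libraries from their group means correlated between groups with r from -0.374 to 0.331, and their average was above that of differently numbered libraries in 14 of 15 pairs of groups. Members, lists and tests were chosen with earlier results of these data known. Intervals on read ratios cover counting error only. Results on some genes of the lists are not reported here.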

Additional observations from a re-analysis of the deposited data

Results flagged for a closer look

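Among 56 groups of 5 libraries tested for a library far from the rest, 1 was found, Ccl17 in WT M2, where replicate 2 stood at 1.22 CPM and the other 4 between 0.580 and 0.662 CPM. Chance alone flags about 1 in 20 such groups.

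The effect of genotype differed between states by the test of the difference itself (edgeR, adjusted over all genes) for 8 values of 6 members. From M0 to M1 it changed by -2.11 for Ccl12, -1.09 for Ccl7 and -0.80 for Ccl2, and by 1.15 for Ccl4 and 0.71 for Ccl3, on the log2 scale. From M0 to M2 it changed by -1.25 for Ccl5. The effect in M1 minus that in M2 was 1.15 for Ccl4 and -0.95 for Ccl12.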

How the results depend on the processing

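Of 113 results on the CC chemokine genes, 96 stayed on their side of the threshold under every alternative run, and none reversed with a call. For 14 results, 54 alternative values changed sign, with no call in either fit. Of 67 called results on the other genes of the lists, 42 kept their call under every alternative. With the replicate block, 4 members were called between genotypes in M0, 3 in M1 and 5 in M2, and 5, 1 and 3 for the genotype effect in M1 minus M0, M2 minus M0 and M1 minus M2 (5, 0 and 2 with the block within genotype). Beyond the calls given above for Ccl12 in M1, Ccl7 in M1 minus M2 and Ccl5 in M2 minus M0, the block changed no call of a CC chemokine gene.

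Counts of members that moved by over 1.5 times were 3 in place of 5 in M2 with limma-voom, 3 in place of 5 for M1 minus M0 in the fit of the compared groups alone, 0 in place of 1 for M2 minus M0 with limma-voom, with the replicate block within genotype and in the groups alone, and 1 in place of 2 for M1 minus M2 with limma-voom. Smaller shifts, of 1 member each, included 3 in place of 4 in M0 (limma-voom, groups alone) and 3 in place of 2 in M1 (limma-voom, covariate, block). Leaving out each library in turn gave 3 to 4 members in M0, 2 to 3 in M1, 2 to 5 in M2, 3 to 5 for M1 minus M0, 0 to 1 for M2 minus M0 and 1 to 4 for M1 minus M2. Over all genes, the count between genotypes was 4072 in M0 (2458 in the groups alone, 2941 to 6143 with a library left out), 3132 in M1 (5433 with the covariate, 2157 to 3522) and 2055 in M2 (4008 in the groups alone, 1270 to 2709). For M1 minus M0 it was 4175 (3141 to 5993), for M2 minus M0 339 (512 with DESeq2, 520 with the covariate, 252 to 511), and for M1 minus M2 3418 (2288 to 4116). The cause of these shifts was not tested. Depth limits Ccl17, with 124 and 74 reads in the M2 groups, and Ccl22 and Ccl12 in M0.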
